A study of Mus musculus with 14 samples.

Results

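Tex19.1 was taken as the single row of that name, 1 of the 472 gene rows counted in every clone, with its 129 and its CAST reads. The 14 samples were female mouse embryonic stem cell lines, each 1 clone, made from F1 2-1 cells of a cross between the 129 and Castaneus (CAST) strains, whose sequence differences let reads be assigned to the parental chromosome they came from. All were grown without serum on gelatin and laminin, with LIF and with small molecules that block MEK and GSK3, and all were assayed by polyadenylated RNA sequencing after hybrid selection with the same probe pool. Every line carried an enhancer deletion, and none was free of both deletions. The enhancer named Chen2008-1 was deleted in 8 clones: 6 of genotype +/- (B8, D3, E3, E7, G3 and H7) and 2 of genotype -/+ (D10 and D2). The enhancer named Chen2008-25 was deleted in 6 clones: 5 of genotype -/- (B4, C4, G2, H2 and H4) and 1 of genotype -/+ (E6). In a genotype a minus sign stands for a chromosome with the deletion and a plus sign for an intact one. The series asked how deletion of an enhancer acts on the genes near it, with the other chromosome of the same cells as the control.

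Tex19.1 encodes a mammal-specific protein of embryonic stem cells, germ cells and placenta. It is known to bind the ubiquitin ligase UBR2 and to restrain retrotransposons such as LINE-1, and male mice without it are defective in meiosis. Its promoter is known to be methylated and silent in most somatic tissues. Tex19.2, its paralogue, arose by duplication in rodents and lies next to it on chromosome 11.

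The 250 bases before each gene's start are shown because the neighbours differed in promoter composition, with every CG, the dinucleotide that can carry DNA methylation, in capitals. They are RefSeq sequences of the reference strain on GRCm38.p6, a later build than that of the counts, and carry neither the 129 nor the CAST differences.
Tex19.1 promoter, chr11:121145893-121146142, plus strand: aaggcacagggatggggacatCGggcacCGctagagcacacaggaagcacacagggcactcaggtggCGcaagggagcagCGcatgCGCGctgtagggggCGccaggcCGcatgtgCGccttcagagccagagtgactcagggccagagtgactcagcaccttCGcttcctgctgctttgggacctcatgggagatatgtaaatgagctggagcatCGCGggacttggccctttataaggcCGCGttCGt
Tex19.2 promoter, chr11:121118678-121118927, minus strand: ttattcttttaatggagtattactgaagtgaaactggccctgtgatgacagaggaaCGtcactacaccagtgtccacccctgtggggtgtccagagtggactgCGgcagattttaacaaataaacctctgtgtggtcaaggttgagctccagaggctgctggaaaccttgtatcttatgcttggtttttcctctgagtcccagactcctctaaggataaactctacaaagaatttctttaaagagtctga
The Tex19.1 window held 15 CG and was 61.6% G or C, and the letters TATAA stood 17 bases before the start. The Tex19.2 window held 2 CG, was 44.4% G or C and held no TATAA on either strand. Over 32851 RefSeq promoter windows of the same length the median was 6 CG, 72.7% held fewer CG than Tex19.1, 18.8% held fewer than Tex19.2, and 22.8% held TATAA on either strand. DNA methylation was not measured here.

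The coding sequences of the pair are alike, which bears on how reads could be assigned. In the GENCODE transcripts the coding sequences are 1056 bases for Tex19.1 and 954 bases for Tex19.2, and 731 of the 948 aligned coding bases (77.1%) were identical. The longest exact run shared by the transcripts was 72 bases, of which the following 34 bases open both coding sequences, with the start codon in capitals.
Shared coding start of Tex19.1 and Tex19.2: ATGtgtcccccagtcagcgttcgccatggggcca
Of the 25-base windows of the Tex19.1 transcript, 157 of 1721 (9.12%) were found in that of Tex19.2, against 50 of 1696 (2.95%) at 50 bases and 0 of 1671 at 75 bases. Neither the read length nor the treatment of reads that match both genes is given in the sources used here, and the split of reads between the pair is uncertain.

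Reads with an assigned allele numbered 135881 (D10) to 1331965 (D3) per clone over the whole panel, and reads of Tex19.1 numbered 575 to 6429. Levels are CPM of these reads, scaled by the trimmed mean of M values (TMM), and an allele's level uses the same total. The 129 share is the percentage of a gene's allelic reads that came from the 129 chromosome. Its 95% Wilson intervals hold only the error of counting, and they take reads as independent. Even numbers made up 79.1% to 88.6% of the counts from 1 to 19, so reads may not be independent and the intervals may be too narrow. The order of the genotype signs is not stated in the deposited table and was read as 129 before CAST. Trim28, on chromosome 7, had a 129 share of 67.5% ± 1.53 (SD, n = 6) in the +/- clones, 30.2% ± 1.62 (n = 2) in the -/+ clones of Chen2008-1 and 49.8% ± 0.622 (n = 5) in the -/- clones of Chen2008-25. B3gnt7, on chromosome 1, had a share of 26.0% in E6 and 54.3% ± 8.52 (n = 5) in the -/- clones. Tex19.1 lies on chromosome 11, away from both of these genes. The panel held 0 of 7 listed markers of embryonic stem cells, 0 of 10 pluripotency genes, 0 of 9 markers of early differentiation, 0 of 15 germline genes and 0 of 5 markers of feeder fibroblasts, so the labelled cell type could not be checked.

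Tex19.1 was lower in the Chen2008-1 clones than in the Chen2008-25 clones. Its mean over all 14 clones was 4612 CPM ± 604 (SD), against a panel median of 631 CPM, but CPM of captured reads with an assigned allele also depend on the probes and on the number of strain differences in a transcript, so levels of different genes do not rank their abundance. In Chen2008-1 the +/- clones were at 4789 (B8), 4564 (D3), 4371 (E3), 3716 (E7), 4534 (G3) and 4187 CPM (H7), and the -/+ clones at 4544 (D10) and 3512 CPM (D2). In Chen2008-25 the -/- clones were at 4753 (B4), 5502 (C4), 4927 (G2), 5785 (H2) and 4963 CPM (H4), and the -/+ clone at 4424 CPM (E6). The 2 lowest clones, D2 and E7, and the 2 highest, H2 and C4, stood at the ends, while E6 and B4 fell inside the range of Chen2008-1, so the sets overlapped.

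**Figure D1:**
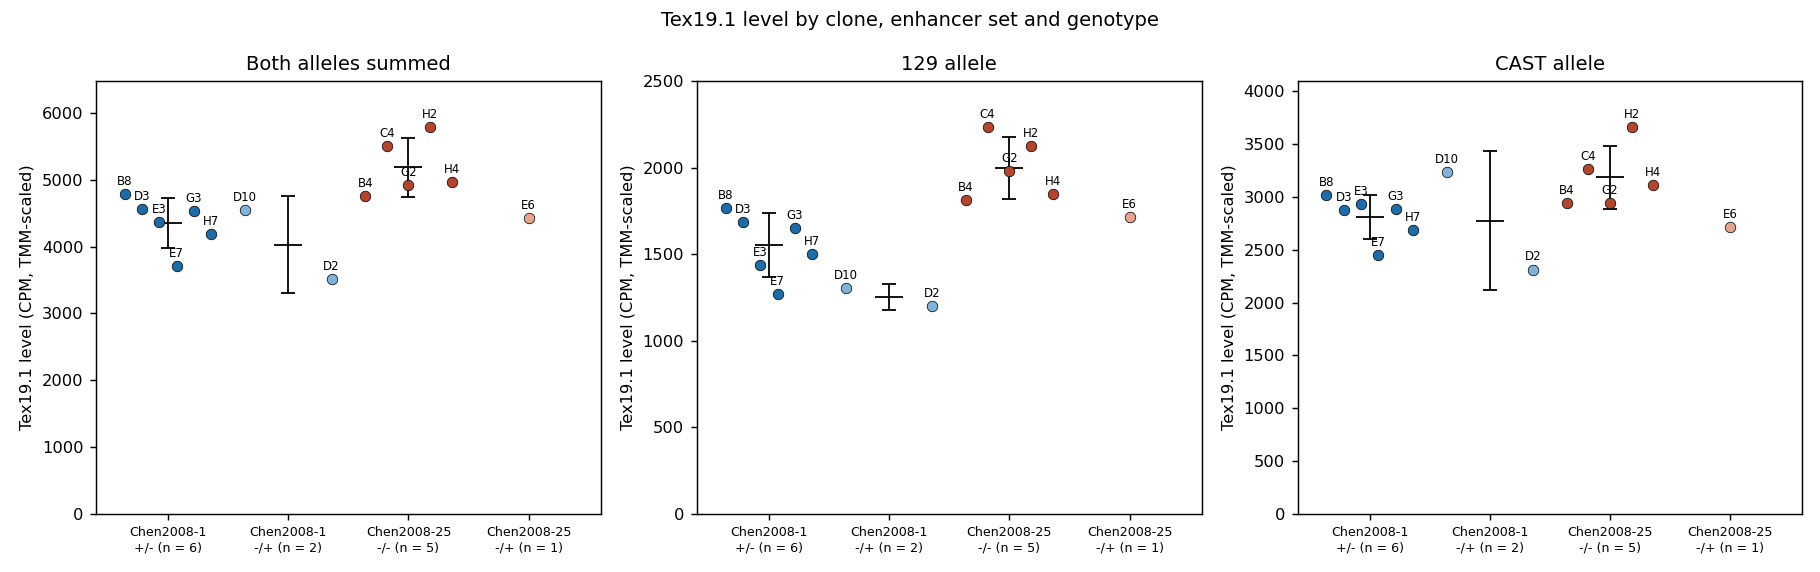
Tex19.1 level in CPM by clone (points, named), by enhancer set and genotype, for both alleles summed, the 129 allele and the CAST allele, with the mean and SD of each group as bars (E6 is a single clone). The summed level averaged 4277 CPM in Chen2008-1 and 5059 CPM in Chen2008-25, and the sets overlap in every panel.

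The mean was 4277 CPM ± 447 (n = 8) in Chen2008-1 and 5059 CPM ± 499 (n = 6) in Chen2008-25. The log2 difference was -0.24 (SE 0.07, 95% interval -0.40 to -0.09, adjusted p = 0.00799, edgeR's quasi-likelihood test with Benjamini-Hochberg adjustment), a level in Chen2008-1 of 84.4% (75.7% to 94.1%) of that in Chen2008-25. An exact two-sided permutation test of the clones gave p = 0.00733 (0.0293 adjusted over 12 such tests). In the panel 63.8% of genes passed the same threshold, 154 higher and 132 lower in Chen2008-1, so a set difference was the common case, and Tex19.1 ranked 289 of 448 by its size. The column headers carry a number that differs between the sets along with the enhancer, and no clone lacks both deletions, so the deletion and anything else that distinguishes the sets cannot be told apart. In such bulk samples fewer expressing cells and less RNA per cell cannot be told apart either. The p-values set a difference against the spread between these clones and take the clones as independent. The labels do not say how many independent derivations the clones represent, so the p-values may be too small.

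The set difference was larger in the 129 copy than in the CAST copy, a contrast tested through the allele ratio further on. Its level in Chen2008-1 ran from 1200 CPM (D2) through 1268 (E7), 1304 (D10), 1440 (E3), 1504 (H7), 1652 (G3) and 1685 (D3) to 1767 CPM (B8). In Chen2008-25 it ran from 1713 CPM (E6) through 1811 (B4), 1849 (H4), 1983 (G2) and 2127 (H2) to 2233 CPM (C4). B8 alone of the Chen2008-1 clones lay within the Chen2008-25 range, above E6. The means were 1477 CPM ± 211 (n = 8) and 1953 CPM ± 199 (n = 6). The log2 difference was -0.40 (SE 0.09, 95% interval -0.59 to -0.21, adjusted p = 0.000874, edgeR with Benjamini-Hochberg adjustment), where 56.6% of the 412 genes tested passed. The exact permutation test gave p = 0.00200 (0.0220 adjusted).

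The CAST copy was higher than the 129 copy in 14 of 14 clones. In Chen2008-1 it was at 3021 (B8), 3240 (D10), 2313 (D2), 2879 (D3), 2932 (E3), 2448 (E7), 2882 (G3) and 2684 CPM (H7). In Chen2008-25 it was at 2943 (B4), 3269 (C4), 2711 (E6), 2944 (G2), 3658 (H2) and 3114 CPM (H4). The means, 2800 CPM ± 304 (n = 8) and 3106 CPM ± 329 (n = 6), differed by -0.16 on the log2 scale (SE 0.08, 95% interval -0.32 to 0.01, adjusted p = 0.0906, edgeR with Benjamini-Hochberg adjustment), which missed the threshold, while 59.7% of the 395 genes tested passed. The exact permutation test gave p = 0.103 (0.214 adjusted). This call depended on single clones and on scaling: without D10 the adjusted p was 0.0468, without E6 it was 0.0469 (0.0468 to 0.253 over the clones left out in turn), and with total-count scaling the difference was -0.20 (adjusted p = 0.0416, edgeR, within 0.00887 to 0.112 over other scalings, tools and filters). Scaling moved the panel as a whole: relative to the panel median the CAST copy stood at -0.22 with TMM and with total-count scaling.

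The CAST chromosome gave the larger part of the allelic reads of Tex19.1 in every clone. Whether capture or read assignment favoured either allele of this gene was not tested. The 129 share in the +/- clones was 36.9% (B8, 35.5% to 38.3%), 36.9% (D3), 32.9% (E3), 34.1% (E7), 36.4% (G3) and 35.9% (H7). It was 28.7% (25.1% to 32.5%) in D10 and 34.2% (32.7% to 35.6%) in D2. In the -/- clones it was 38.1% (B4), 40.6% (C4), 40.2% (G2), 36.8% (H2) and 37.3% (H4), and in E6 it was 38.7% (36.9% to 40.6%). D10, the clone with the fewest reads, was the lowest, and C4 and G2 were the highest. The mean over all clones was 36.3% ± 3.08 (n = 14), and the 129 level was 57.1% (53.6% to 60.9%) of the CAST level, a log2 ratio of -0.81 (SE 0.04, adjusted p = 2.36e-12, edgeR with Benjamini-Hochberg adjustment). A ratio of the alleles away from 1 was common in this cross, since 72.3% of 448 genes passed, and over 416 autosomal genes the middle value of the 129 share was 50.7%, 53 of them lying below Tex19.1.

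**Figure D2:**
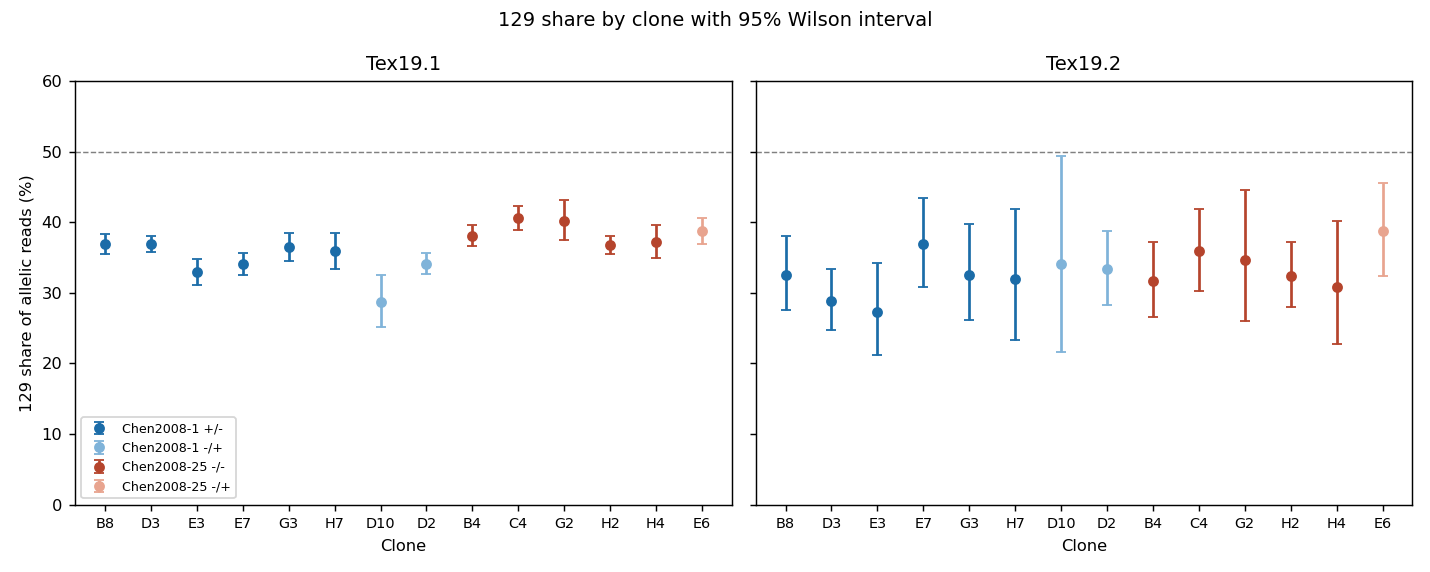
Percentage of allelic reads from the 129 chromosome by clone for Tex19.1 and for Tex19.2, with 95% Wilson intervals and a dashed line at 50%. Tex19.1 runs from 28.7% (D10) to 40.6% (C4), below the line in all clones, and Tex19.2 has wider intervals on fewer reads.

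The share also differed between the sets. It averaged 34.5% ± 2.77 (n = 8) in Chen2008-1 and 38.6% ± 1.56 (n = 6) in Chen2008-25, a difference of -4.10 percentage points (exact permutation p = 0.00366, 0.0220 adjusted). B8 and D3, at 36.9%, lay just above H2 at 36.8%, so the sets overlapped. In the model of both alleles with the clone as a block, the log2 ratio of 129 over CAST differed by -0.23 (SE 0.07, 95% interval -0.37 to -0.10, adjusted p = 0.0215, edgeR with Benjamini-Hochberg adjustment). Far fewer genes passed here than for the level, 54 of 448 (12.1%), 28 higher and 26 lower, and Tex19.1 was 41st in order of p and 174th in order of size. The call rested on single clones of Chen2008-25: without C4 the difference was -0.21 (adjusted p = 0.0644, edgeR) and without G2 it was -0.22 (adjusted p = 0.0520), within 0.0165 to 0.0644 over the clones left out in turn. Without the -/+ clones of Chen2008-1 it was -0.18 (adjusted p = 0.0225, edgeR), an alternative chosen after the data were seen.

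The pooled SD of the 129 share of Tex19.1 within sets was 2.34 points, against 1.05 points for counting error alone with independent reads. The summed level had a within-set SD of 0.15 on the log2 scale. The panel medians were 4.20 points and 0.21, over genes that mostly had fewer reads than Tex19.1, so these values are not matched for depth.

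Genotypes within a set were compared in few clones. In Chen2008-1 the +/- clones averaged 4360 CPM ± 374 (n = 6) and the -/+ clones 4028 CPM ± 729 (n = 2), with D10 inside the +/- range and D2 below it. The log2 difference, -/+ minus +/-, was -0.13 (SE 0.11, 95% interval -0.36 to 0.11, adjusted p = 0.998, edgeR with Benjamini-Hochberg adjustment), and without D2 it was 0.02. No gene of the 448 passed in this comparison (0%), 13 had an unadjusted p under the threshold, and DESeq2 and limma on log2 values also called none. The exact permutation p was 0.464, where the smallest that 28 splits can give is 0.0357.

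The 129 copy of Tex19.1 was at 1553 CPM ± 184 (n = 6) in the +/- clones and at 1252 CPM ± 73.7 (n = 2) in the -/+ clones, while the CAST copy was at 2808 CPM ± 208 and 2776 CPM ± 656. The share was 35.5% ± 1.65 and 31.4% ± 3.86, a difference of -4.11 points (exact permutation p = 0.107). The log2 ratio of 129 over CAST differed by -0.20 (SE 0.09, 95% interval -0.38 to -0.01, unadjusted p = 0.0368, adjusted p = 0.994, edgeR with Benjamini-Hochberg adjustment), where 0.893% of genes passed. It was -0.09 without D10, whose 575 reads are the fewest, and -0.46 without D2.

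In Chen2008-25 the single -/+ clone E6 was lowest of its set in summed level (4424 CPM, against 5186 CPM ± 437 in 5 -/- clones), in the 129 level (1713 against 2001 CPM ± 180) and in the CAST level (2711 against 3186 CPM ± 297). The log2 difference in summed level, -/- minus -/+, was 0.23 (SE 0.15, 95% interval -0.08 to 0.54, adjusted p = 0.825, edgeR with Benjamini-Hochberg adjustment), where 0.223% of genes passed. The share of E6 lay among those of the -/- clones, and the log2 ratio differed by -0.02 (SE 0.11, 95% interval -0.24 to 0.21). A lone clone is assumed in this fit to vary like the others, and the smallest p that its 6 exact splits can give is 0.167.

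Tex19.2 had fewer reads than Tex19.1 and was also lower in Chen2008-1. It had 41 (D10) to 419 reads (D3) per clone. Its summed level ran from 239 (E7) to 359 CPM (G3) in Chen2008-1 (mean 301 CPM ± 39.4, n = 8) and from 326 (H4) to 477 CPM (C4) in Chen2008-25 (mean 390 CPM ± 56.9, n = 6). The log2 difference was -0.39 (SE 0.11, 95% interval -0.62 to -0.15, adjusted p = 0.00575, edgeR with Benjamini-Hochberg adjustment). Per kilobase of annotated exon, over all 14 clones, the level of Tex19.1 was 2464 CPM ± 323 and that of Tex19.2 was 166 CPM ± 31.6, values that length alone does not make comparable in abundance, since probe capture and the density of strain differences were not corrected for.

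The alleles of Tex19.2 were unequal in the same direction as those of Tex19.1. Its 129 share averaged 33.0% and ran from 27.3% (E3) to 38.8% (E6), and its log2 ratio of 129 over CAST was -1.03 (SE 0.07, adjusted p = 3.54e-11, edgeR with Benjamini-Hochberg adjustment). The share of Tex19.1 was the higher of the pair in 11 of 14 clones. Between the sets the Tex19.2 ratio differed by -0.13 (SE 0.14, 95% interval -0.42 to 0.15, adjusted p = 0.657, edgeR), an interval that holds both 0 and the value of Tex19.1. Both of its alleles were lower in Chen2008-1, with log2 differences of -0.49 for 129 (SE 0.14, edgeR adjusted p = 0.00696) and of -0.34 for CAST (SE 0.13, edgeR adjusted p = 0.0261).

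The paralogues moved together from clone to clone. Over 14 clones, which share libraries and scaling, Pearson's r of log2(CPM + 1) between them was 0.87, the highest of all panel genes with Tex19.1, and it was 0.76 after subtracting the set means, again the highest. Within Chen2008-1 it was 0.83 (n = 8) and within Chen2008-25 it was 0.68 (n = 6). Within a single set other panel genes of chromosome 11 came close to these values. Slc16a3 had r = 0.81 with Tex19.1 within Chen2008-1 but -0.63 within Chen2008-25. Cd7 had r = 0.66 within Chen2008-25 but 0.03 within Chen2008-1. The ratio of Tex19.1 to Tex19.2 reads was 14.3 ± 1.07 (n = 8, 12.6 to 15.6) in Chen2008-1 and 13.1 ± 1.39 (n = 6, 11.5 to 15.2) in Chen2008-25 (exact permutation p = 0.0889). Reads that match both genes could contribute to this likeness, and that was not tested.

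**Figure D3:**
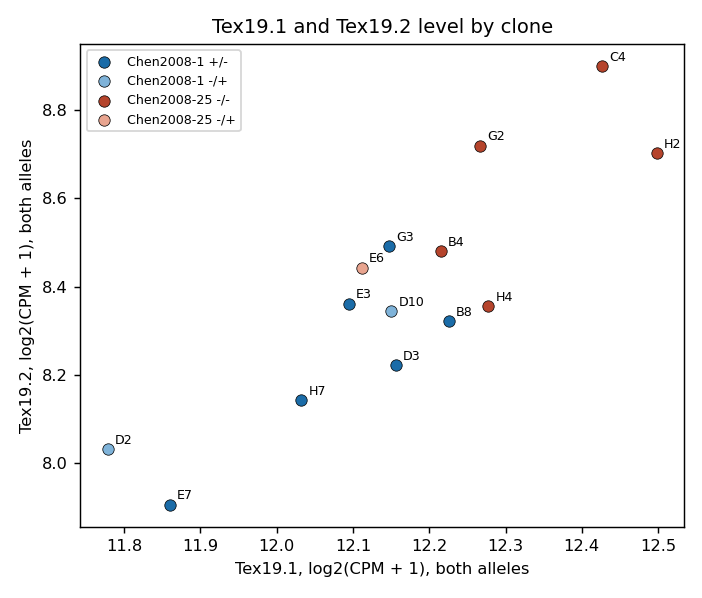
Summed level of Tex19.1 (x axis) and of Tex19.2 (y axis) in each clone, both as log2(CPM + 1), coloured by enhancer set and genotype. Clones low in Tex19.1 (D2, E7) are low in Tex19.2 and clones high in it (C4, H2) are high, with r = 0.87 over 14 clones.

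After Tex19.2 the genes most like Tex19.1 over all clones were Zfp740, a zinc finger protein (r = 0.79, 0.61 after subtracting set means), Epb4.1, a protein of the membrane skeleton (0.73 and 0.47), Zscan18 (0.70 and 0.32) and Ralgapb, a subunit of a Ral GTPase-activating complex (0.69 and 0.39). All of these were lower in Chen2008-1, from -0.16 (Ralgapb) to -1.12 (Zscan18) on the log2 scale. They were chosen by r over the clones of both sets, so this shared direction follows in part from the choice. In the panel 132 of 448 genes passed the threshold as lower in Chen2008-1. After subtracting set means the next were Tmem222 (0.66), Zfp740 (0.61), Krt18, a keratin (0.59), and Mansc1 (0.55). Tmem222 and Krt18 were higher in Chen2008-1, and over all clones their r was -0.30 and -0.23. The median r over the panel was -0.04, and -0.03 after subtracting set means.

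The next panel genes differed among themselves in level between the sets. Tex19.1 is the last panel gene on chromosome 11, so all neighbours lie on the same side. Beyond Tex19.2 comes Cd7, a T-cell surface protein with a mean of 36.5 reads, at 45.2 CPM ± 11.8 (n = 8) in Chen2008-1 and 72.0 CPM ± 18.6 (n = 6) in Chen2008-25, a log2 difference of -0.66 (SE 0.22, adjusted p = 0.0125, edgeR with Benjamini-Hochberg adjustment). Csnk1d, casein kinase 1 delta, was at 4241 CPM ± 198 and 4306 CPM ± 295, a difference of -0.02 (SE 0.05, 95% interval -0.13 to 0.09). Slc16a3, a lactate transporter, was at 3653 CPM ± 1228 and 298 CPM ± 73.7, a difference of 3.63 (SE 0.26, adjusted p = 2.93e-09, edgeR). The ratio of alleles did not pass between the sets for Cd7 (-0.52, SE 0.46), Csnk1d (0.05, SE 0.04) or Slc16a3 (0.07, SE 0.09). The 129 shares of Csnk1d were 51.2% and 50.3%, and those of Slc16a3 were 56.0% and 55.3%. Those of Cd7, on few reads, were 28.4% ± 17.7 and 40.7% ± 12.9, below 50% as for Tex19.1 and Tex19.2. Over all clones the log2 ratio of 129 over CAST of Cd7 was -0.89 (SE 0.24, adjusted p = 0.00216, edgeR with Benjamini-Hochberg adjustment).

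**Figure D4:**
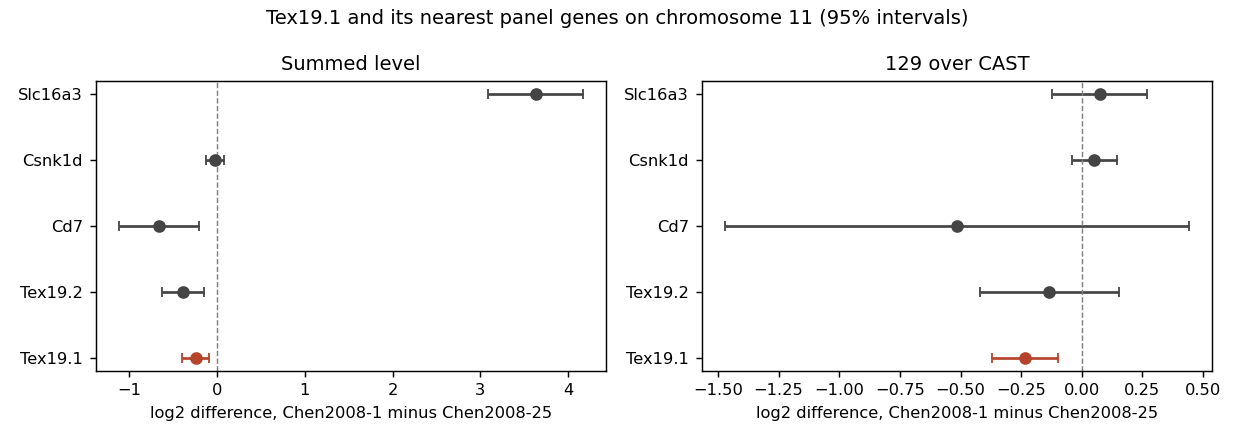
Log2 difference, Chen2008-1 minus Chen2008-25, with 95% intervals, for Tex19.1 (red) and the nearest panel genes in chromosome order, in summed level (left) and in the ratio of 129 over CAST (right). Tex19.1 is at -0.24 and -0.23, Csnk1d is near 0 in both, and Slc16a3 is at 3.63 in level and 0.07 in the ratio.

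Of 16 listed genes of retroelement control or Tex19.1 partnership, 2 were in the panel, Tex19.2 and Trim28. Trim28 encodes the corepressor that zinc finger proteins recruit to silence retroelements. Its level was 68772 CPM ± 13340 (n = 8) in Chen2008-1 and 91511 CPM ± 13407 (n = 6) in Chen2008-25, a log2 difference of -0.41 (SE 0.12, adjusted p = 0.00506, edgeR with Benjamini-Hochberg adjustment). Its level and that of Tex19.1 had r = 0.47 over 14 clones and 0.05 after subtracting set means. Both genes were lower in Chen2008-1, as were 132 of the 448 genes tested at the same threshold. The 129 share of Trim28 differed with the Chen2008-1 genotype (67.5% in +/- and 30.2% in -/+ clones). A link between Trim28 and Tex19.1 was not tested.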

How the data were processed

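Each clone's deposited table gives raw read counts, whole numbers that the authors had not normalized, for 472 genes, with 129 and CAST reads apart (per the file headers). Genotypes came from the deposited text table. The submitters' processing notes name the build mm9. Aligner, allele assignment, counting tool and strand use are not given in the sources used here. No column of another sample was found.

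Of a pair of genes with identical counts, 1 was left out. Genes with a mean of at least 10 reads (448 for summed reads) were tested with edgeR 4.0.16 (quasi-likelihood, TMM scaling), with genotypes compared within a set and both allele columns fitted with the clone as a block for allele ratios. P-values were adjusted over all genes tested (threshold 0.05). Single values were tested by exact permutation over clones. DESeq2 1.42.0, limma 3.58.1, other scalings and filters, and leaving out each clone were alternatives. Scripts were tested on simulated data. Named genes were Tex19.1, its panel neighbours (up to 4 on each side), the 5 most correlated genes with and without set means, listed partners and the genes that check the genotypes. Tex19.1, the lists and the tests were chosen with earlier results of these data known. Sequences are from RefSeq (GRCm38.p6) and GENCODE.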

Additional observations from a re-analysis of the deposited data

Results flagged for a closer look

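The log2 ratio of 129 over CAST of Tex19.1 differed between the enhancer sets by -0.23, the allele effect being tested as a term of the model over both sets. The 129 share was 34.5% in Chen2008-1 and 38.6% in Chen2008-25. Of 32 checks for a clone standing apart from its group, 0 found one, though the 129 share of D10 came close: its gap to the next clone of Chen2008-1 was 0.515 of the range, against a critical value of 0.526.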

How the results depend on the processing

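Over other scalings, tools and filters on low counts the set difference of Tex19.1 ranged from -0.37 to -0.24 (log2) in summed level, from -0.52 to -0.39 in the 129 copy and from -0.26 to -0.22 in the allele ratio, all past the threshold. The CAST copy passed with upper-quartile scaling (-0.28), total-count scaling (-0.20) and DESeq2 (-0.19), where relative to the panel median it stood at -0.23, -0.22 and -0.22, against -0.22 with TMM. Leaving out 1 clone gave -0.20 to -0.10 for the CAST copy, passing without D10 (-0.18) and without E6 (-0.19). Upper-quartile scaling moved the panel median by -0.12, and relative to that median Tex19.1 stood at -0.25, as it did with TMM. Leaving out 1 clone gave -0.29 to -0.20 for the summed level, -0.46 to -0.36 for the 129 copy, -0.26 to -0.20 for the allele ratio, which missed the threshold without C4 (-0.21) or G2 (-0.22), and -0.83 to -0.78 for the ratio over all clones. For -/+ against +/- in Chen2008-1 it gave -0.31 to 0.0179 in level (0.0179 without D2) and -0.46 to -0.09 in the ratio. For -/- against -/+ in Chen2008-25 it gave 0.19 to 0.27 in level and -0.0492 to 0.0179 in the ratio, which changed sign without H2 (0.0179) or H4 (0.000708), and neither could be fitted without E6. Without both -/+ clones of Chen2008-1, the summed level differed by -0.23, the 129 copy by -0.35 and the CAST copy by -0.17. The cause of these changes was not tested. No paired analysis was possible because the labels give the clones names and no replicate numbers shared between groups. Depth was low in D10 (575 reads of Tex19.1) and for Cd7 (a mean of 36.5 reads per clone), Krt18 (31.1) and Mansc1 (24.4).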

Other observations

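The end of chromosome 11 was looked at as a whole after the data were seen, in the 54 panel genes from Ccdc40 to Tex19.1. The median 129 share of the 51 of these genes that were tested, Tex19.1 left out, lay between 48.4% and 50.9% in every clone. Among these 51, 11 had a lower mean share than Tex19.1, against 53 of the 416 autosomal genes tested in the panel. Of the 51 other genes tested, 6 (11.8%) had an allele ratio that differed between the sets by edgeR with Benjamini-Hochberg adjustment, near the 12.1% of the panel, and 1 of these was lower on the 129 side in Chen2008-1. In summed level 35 of the 51 passed (68.6%, against 63.8% of the panel), 29 higher and 6 lower in Chen2008-1, with a median log2 difference of 0.23, on the other side of 0 from that of Tex19.1.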
